A study of Mus musculus with 11 samples.

Results

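The proteasome is the barrel-shaped protease that degrades ubiquitin-tagged proteins in the cytosol and nucleus of every cell. Its 20S core is built from rings of alpha subunits, which gate the barrel, and rings of beta subunits, of which only Psmb5, Psmb6 and Psmb7 carry the constitutive peptidase sites. The 19S regulatory particle docks on the core. Its base holds a ring of ATPases that unfold substrates, and its lid carries the deubiquitinase that removes the ubiquitin chain. PA28 and PA200 are alternative caps that open the gate without ATP, and PA28 made of Psme1 and Psme2 is known as a target of interferon gamma together with the immunoproteasome subunits.

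Transcripts of the constitutive proteasome were examined in bulk RNA from 11 orthotopic pancreatic tumours. The genes were all protein-coding genes whose GENCODE M21 symbol begins with Psma, Psmb, Psmc, Psmd or Psme, without the interferon-induced subunits Psmb8, Psmb9 and Psmb10. The rule found 42 genes among the 54232 genes of the count table, of which 21983 are protein-coding. These comprised 7 alpha ring genes, 4 non-catalytic and 3 catalytic beta genes, 6 base ATPases, 3 further base subunits, 8 lid subunits, 3 chaperones that assemble the base, 3 PA28 genes and 1 PA200 gene. A further 2 genes encode tissue-restricted core subunits, Psma8 of testis and Psmb11 of thymus. Another 2 share only the prefix: Psmc3ip encodes a meiotic recombination factor, and Psme2b is an intronless copy of Psme2.

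The tumours came from 6 PKN2 KO hosts (Pkn2 fl/fl, replicates A to F) and 5 PKN2 WT hosts (Pkn2 +/+, replicates A to E). All hosts were female, age-matched adult C57BL/6 mice heterozygous for Rosa26-CreERT2, a tamoxifen-activated Cre expressed throughout the body, and all received tamoxifen. Each pancreas was injected with 1000 TB32048 cells, a carcinoma line from a female KPC mouse, suspended in DMEM and Matrigel. The study does not give the Pkn2 status of this line. The deletion was aimed at host cells, but not at a single host cell type. Pkn2 itself averaged 96.6 ± 9.34 CPM in tumours of KO hosts and 96.7 ± 34.6 CPM in those of WT hosts (SD, n = 6 and 5). These counts cover the whole gene and mix host with carcinoma cells, so they do not check the genotype. The reason for the equal means was not tested. CPM stands for counts scaled to a common library total, here with the TMM method.

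Libraries held 16294128 (WT B) to 31121422 (WT E) counts, and 3 counts corresponded to 0.0887 to 0.250 CPM. WT A, B and C stood apart. Ribosomal RNA took 1.31%, 6.39% and 1.40% of their counts, against 0.241 to 0.765% in the other 8 tumours, and expression relative to the gene mean fell with exon length across genes (Spearman -0.496, -0.446 and -0.171) but rose in the others (0.100 to 0.372). Carcinoma epithelium markers were detected in every tumour, with a summed level of 2725 to 5617 CPM in KO tumours and 3108 to 9488 CPM in WT tumours. Acinar markers summed to 7.21 to 553 CPM in KO tumours and 12.8 to 1429 CPM in WT tumours, highest in KO E and WT E, and Cpa1 was at 0 in at least 1 tumour. The islet genes Ins1, Ins2 and Gcg were each at 0 in some tumours and reached a sum of 285 CPM in WT E.

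The comparison asked whether loss of host PKN2 altered the expression of proteasome genes in the tumour. None of the 41 genes that passed the expression filter reached an adjusted p under 0.05 (edgeR quasi-likelihood test, Benjamini-Hochberg adjustment over 16536 genes), where 0% of all tested genes were called lower and 0.0181% higher in KO tumours. The log2 fold change, KO against WT, was below 0 in 38 of 41 genes, against 52.0% of all tested genes, which were not independent of each other. At p under 0.05 before adjustment, 10 proteasome genes (24.4%) were lower in KO tumours, against 15.5% of all genes, and 1 (2.44%) was higher, against 8.57%. DESeq2 also called 0 proteasome genes after adjustment, against 4.81% of all genes called lower and 3.19% called higher, with 9 lower and 1 higher at p under 0.05 before adjustment, against 10.3% and 6.27% of all genes. The groups overlapped in CPM for every proteasome gene tested. Of all tested genes, 2.01% were lower and 1.59% higher in KO tumours without overlap, so 0 of 41 is near these shares.

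The structural groups differed in their fold changes. The median log2 fold change was -0.63 for the 14 genes of the 20S core, -0.18 for the 17 genes of the 19S particle and -0.43 for PA28, beside -0.03 for all tested genes. All 14 core genes lay below 0, as did 15 of 17 genes of the 19S particle and 3 of 3 PA28 genes. When counts were scaled by library totals alone, the median of all genes was 0.11, and 14 core, 12 particle and 2 PA28 genes lay below 0. These values are descriptions of lists, and the difference between the lists was not tested. In bulk tissue, fewer cells of a type and less RNA per cell cannot be told apart.

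**Figure D1:**
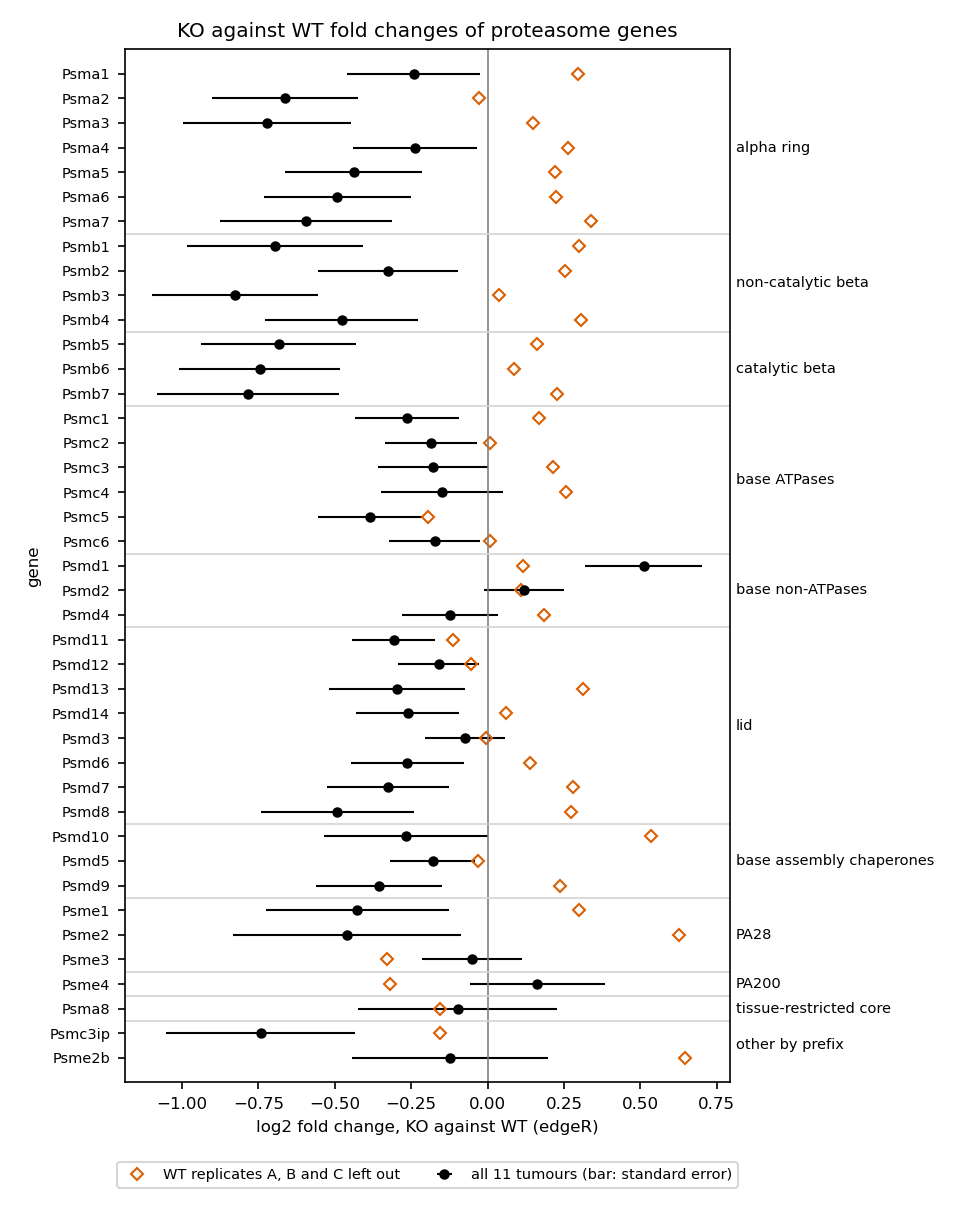
Log2 fold change (edgeR, KO against WT, horizontal axis) of the 41 tested proteasome genes by structural group; filled circles with standard error bars use all 11 tumours, and open diamonds are the fit without WT A, B and C. Circles lie left of 0 for 38 genes, with Psmd1, Psmd2 and Psme4 as the exceptions, whereas only 10 diamonds do.

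The WT tumours did not lie together. WT A was above all 6 KO tumours for 36 of the 41 genes, WT B for 33 and WT C for 20. WT D lay within the KO range for 33 genes, and WT E lay within it for 24 and below all KO tumours for 13. For the 20S core these counts were 14, 14 and 12 of 14 above the KO tumours in WT A, B and C, while 12 of 14 were within the KO range in WT D and 9 of 14 below all KO tumours in WT E. The higher ribosomal RNA share and the negative length trend of WT A, B and C moved with these levels. The core median was -0.29 with a gene length offset in the fit and -0.07 with the ribosomal RNA share as covariate. As the 3 libraries are all WT, these traits and host genotype cannot be fully told apart. Without the 3 libraries the medians were 0.23 for the core, 0.12 for the 19S particle and 0.30 for PA28. That fit keeps only WT D and E, the WT tumours with the lowest core levels, so a core median near or above 0 follows from the choice. At p under 0.05 before adjustment, 1 gene (Psme3, 2.44%) was lower, against 9.01% of all genes. A further 4 (Psma7, Psmb1, Psmd7 and Psmd10, 9.76%) were higher, near the 8.21% of all genes.

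**Figure D2:**
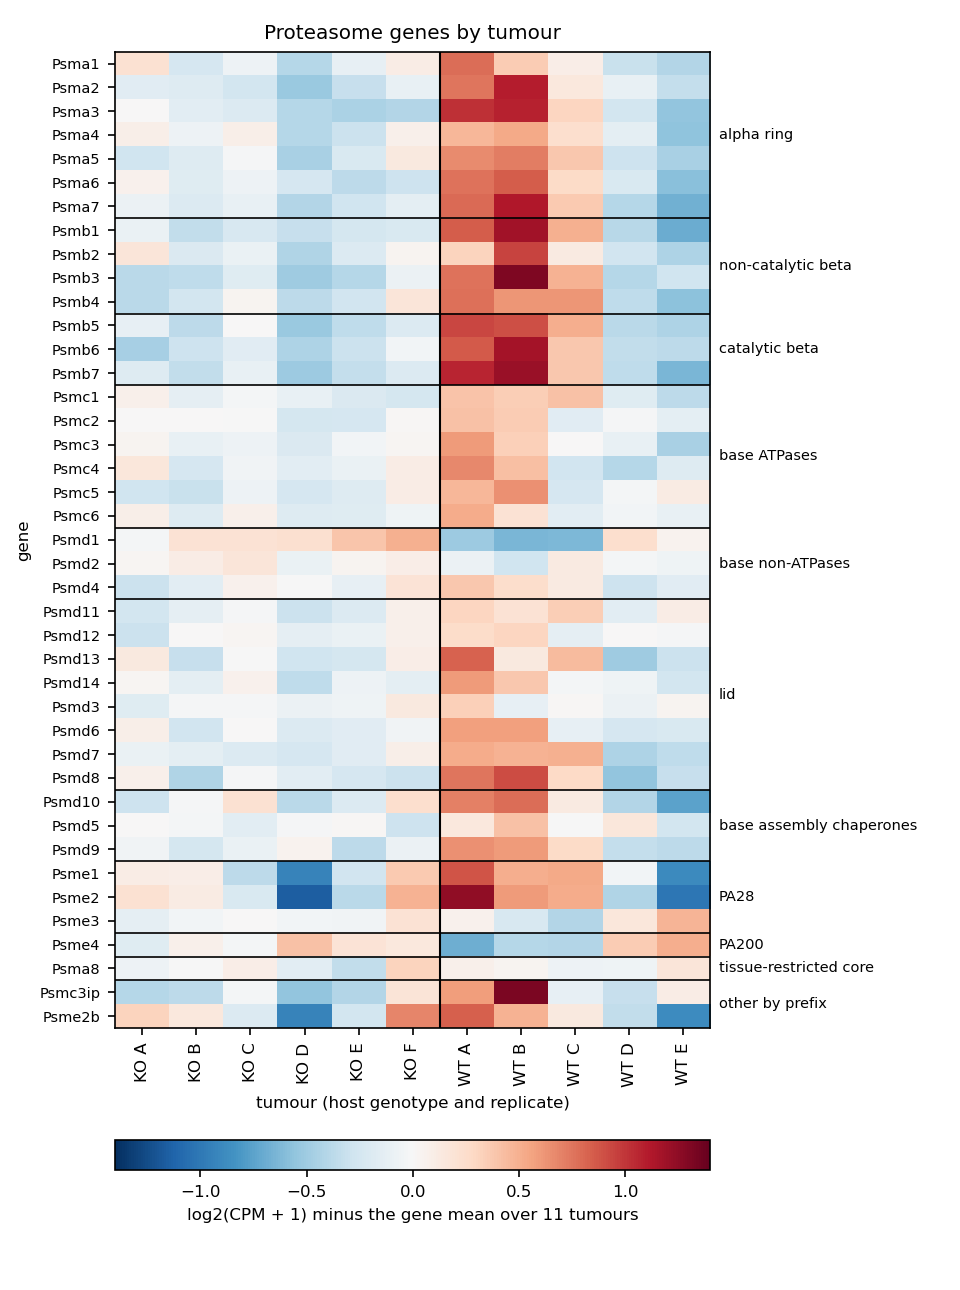
Heat map of log2(CPM + 1) minus the mean of the gene over 11 tumours, for 41 proteasome genes (rows, by structural group) in 6 KO and 5 WT tumours (columns). WT A and B are above the mean across the 20S core, WT D and E are mostly below it, and Psme1 and Psme2 are lowest in KO D and WT E.

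WT D and WT E had the lowest core levels of the WT tumours, so leaving out either one widens the difference by construction. The genes that then passed add no support for a difference. Without WT E, 7 core genes passed the adjusted threshold in edgeR: Psma2, Psma3, Psmb1, Psmb3, Psmb5, Psmb6 and Psmb7, with log2 fold changes from -0.80 to -0.97 and adjusted p from 0.0374 to 0.0412. In that fit 7.46% of all genes were called lower in KO tumours. Without WT D only Psmb3 passed (log2 fold change -0.98, edgeR adjusted p = 0.0461), where 3.87% of all genes were called lower.

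The 3 constitutive catalytic subunits had the lowest median of the groups inside the particle, -0.75. Psmb5 (ENSMUSG00000022193, chr14:54614119-54618022, GRCm38, minus strand) encodes the chymotrypsin-like site, the main target of bortezomib. It ranged from 46.7 to 67.2 CPM with a median of 55.5 CPM in KO tumours, and was at 129.7, 126, 96.2, 51.7 and 49.7 CPM in WT A to E. WT A, B and C were above every KO tumour and WT D and E inside their range. The group means were 56.4 ± 7.52 CPM in KO tumours and 90.8 ± 38.9 CPM in WT tumours (SD, n = 6 and 5), a difference of -0.68 on the log2 scale (SE 0.25, edgeR adjusted p = 0.137). Of its 899 exon bases, 109 are shared with the microRNA gene Mir686, so reads there may be lost or split.

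Psmb6 (ENSMUSG00000018286, chr11:70525367-70527858, plus strand) encodes the caspase-like site. Its KO tumours ranged from 135 to 181 CPM with a median of 151 CPM, and WT A to E were at 337, 420.0, 243, 146 and 144 CPM. The same 3 WT tumours exceeded all KO tumours, and the log2 fold change was -0.75 (SE 0.26, edgeR adjusted p = 0.127). Psmb7 (ENSMUSG00000026750, chr2:38588036-38644087, minus strand) encodes the trypsin-like site. It was at 152 to 200.2 CPM in KO tumours, with a median of 180.1 CPM, and at 452, 499.7, 282, 168 and 138 CPM in WT A to E. WT E was below every KO tumour, so that WT tumours bracketed the KO group on both sides. The log2 fold change was -0.78 (SE 0.30, edgeR adjusted p = 0.145).

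Proteasome promoters are known to hold sites for NFE2L1 (NRF1), the factor that raises subunit transcription when proteasome activity drops, in particular antioxidant response elements. RefSeq start sites on GRCm38.p6 gave promoter windows, from 250 bases before to 50 after the start, for 35 of the 42 genes. On either strand, TGACNNNGC was present in 6 of these 35 (17.1%) and in 12.5% of 27025 windows of all genes, including 2 of 11 core and 2 of 14 particle windows. Among the catalytic subunits Psmb5 and Psmb6 held a match upstream of the start. These stretches are shown because they belong to 2 of the 3 genes that carry the peptidase sites. The element is in capitals, at bases -47 to -39 of Psmb5 (chr14:54618023-54618102, minus strand) and -9 to -1 of Psmb6 (chr11:70525277-70525356, plus strand).
Psmb5: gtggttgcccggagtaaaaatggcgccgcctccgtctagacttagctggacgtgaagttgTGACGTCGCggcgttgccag
Psmb6: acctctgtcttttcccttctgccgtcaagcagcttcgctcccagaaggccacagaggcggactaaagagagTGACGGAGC

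The alpha ring, which gates entry to the core, had a median log2 fold change of -0.49, with 2 of 7 genes (against 15.5% of all genes) lower at p under 0.05 before adjustment. The first of these was Psma2 (ENSMUSG00000015671, chr13:14613240-14674236, plus strand), with KO tumours from 158 to 211 CPM (median 196 CPM) and WT A to E at 383, 487, 252, 211 and 179.9 CPM. WT D coincided with the top of the KO range, and the log2 fold change was -0.66 (SE 0.24, edgeR adjusted p = 0.13). The other was Psma3 (ENSMUSG00000060073, chr12:70974621-70996347, plus strand), with KO tumours from 121 to 166 CPM (median 135 CPM) and WT A to E at 336, 349, 203, 138 and 112 CPM. WT A and B were far above the KO tumours, whereas WT E was the lowest of all 11 tumours. Its log2 fold change was -0.72 (SE 0.28, edgeR adjusted p = 0.146).

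The alpha gene with the largest p was Psma1 (ENSMUSG00000030751, chr7:114264606-114276118, minus strand). Its KO tumours lay between 135 and 208 CPM (median 168 CPM), and WT A to E were at 309, 229, 190.3, 144 and 134 CPM. Only WT A and B exceeded the KO range, and the log2 fold change was -0.24 (SE 0.22, edgeR adjusted p = 0.508). The other 4 alpha genes, Psma4, Psma5, Psma6 and Psma7, had log2 fold changes from -0.24 to -0.59.

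The non-catalytic beta subunits complete the inner rings. Psmb3 (ENSMUSG00000069744, chr11:97703399-97713500, plus strand) had the smallest p of all proteasome genes. Its KO tumours ranged from 100.5 to 134 CPM (median 109.7 CPM), and WT A to E were at 241, 353, 199, 107 and 117 CPM. WT A, B and C were above all KO tumours, and WT D and E lay inside their range. The means of 115 ± 12.6 CPM in KO tumours and 203 ± 101 CPM in WT tumours gave a difference of -0.83 on the log2 scale (SE 0.27, edgeR adjusted p = 0.113).

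Psmb1 (ENSMUSG00000014769, chr17:15475021-15499751, minus strand) was at 221 to 264 CPM in KO tumours (median 238 CPM) and at 504, 638, 397, 215 and 173 CPM in WT A to E. The 6 KO tumours were close together, while WT tumours lay on both sides of them. The log2 fold change was -0.70 (SE 0.29, edgeR adjusted p = 0.169). Psmb2 (ENSMUSG00000028837, chr4:126677630-126709714, plus strand) had the largest p of this group, with 95.2 to 144 CPM in KO tumours (median 116 CPM) and 159, 247, 139.8, 106 and 94.3 CPM in WT A to E. Here WT C was no longer above the KO range, and the log2 fold change was -0.33 (SE 0.23, edgeR adjusted p = 0.394). Psmb4 had a log2 fold change of -0.48.

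The base ATPases unfold substrates and thread them into the core. All 6 had log2 fold changes below 0, with a median of -0.18. Only 1 of 6, Psmc5, had an unadjusted p under 0.05, against 15.5% of all genes lower at that threshold. Psmc5 (ENSMUSG00000020708, chr11:106256154-106263120, plus strand) was at 107 to 143 CPM in KO tumours (median 114 CPM) and at 183, 207, 112, 129.8 and 143 CPM in WT A to E. WT A and B were high, and WT C lay with the KO tumours. Its log2 fold change was -0.38 (SE 0.17, edgeR adjusted p = 0.197).

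Psmc1 (ENSMUSG00000021178, chr12:100110154-100123405, plus strand), the next by p, was at 163 to 205 CPM in KO tumours (median 179 CPM) and at 257, 247, 259, 173 and 151 CPM in WT A to E. WT A, B and C were nearly equal and above the KO range, for a difference of -0.26 on the log2 scale (SE 0.17, edgeR adjusted p = 0.353). Psmc4 (ENSMUSG00000030603, chr7:28041707-28050101, minus strand) had the largest p, with KO tumours from 101 to 132 CPM (median 113 CPM) and WT A to E at 189.9, 158, 98.5, 89.5 and 105 CPM. WT C and D were below all KO tumours. Its log2 fold change was -0.15 (SE 0.20, edgeR adjusted p = 0.672) and changed sign when counts were scaled by library totals alone. Psmc2, Psmc3 and Psmc6 had log2 fold changes of -0.17 to -0.18.

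The remaining base subunits, the scaffolds Psmd1 and Psmd2 and the ubiquitin receptor Psmd4, had a median of 0.12. Psmd1 (ENSMUSG00000026229, chr1:86064387-86139151, plus strand) ran opposite to the core. Its KO tumours were at 116 to 167 CPM (median 137 CPM), and WT A to E at 82.5, 75.2, 75.9, 139 and 122 CPM. WT A, B and C were below every KO tumour, and WT D and E were inside their range. The means of 141 ± 17.8 CPM in KO tumours and 98.9 ± 29.5 CPM in WT tumours gave a difference of 0.51 on the log2 scale (SE 0.19, edgeR adjusted p = 0.138). With 7265 exon bases, Psmd1 was the longest gene of the 20S and 19S particles, and 301 of these bases are shared with Gm21972.

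Psmd2 (ENSMUSG00000006998, chr16:20651652-20663414, plus strand) was even across tumours, at 276 to 332 CPM in KO (median 308 CPM) and at 279, 242, 320.4, 288 and 281 CPM in WT A to E. Only WT B lay outside the KO range, below it, and the log2 fold change was 0.12 (SE 0.13, edgeR adjusted p = 0.597). Psmd4 (ENSMUSG00000005625, chr3:95032694-95042614, minus strand) was at 144 to 203 CPM in KO tumours (median 171 CPM) and at 231, 210.1, 194, 145 and 159 CPM in WT A to E. WT A and B exceeded the KO range, and the log2 fold change was -0.12 (SE 0.16, edgeR adjusted p = 0.657), above 0 under scaling by library totals.

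The lid removes and recycles ubiquitin, through its metalloprotease Psmd14. Its 8 genes had log2 fold changes below 0 and a median of -0.28, with Psmd14 itself at -0.26. Psmd11 (ENSMUSG00000017428, chr11:80428615-80473248, plus strand), a scaffold subunit, had the only unadjusted p under 0.05 (1 of 8, against 15.5% of all genes lower). It was at 88.1 to 114 CPM in KO tumours (median 97.1 CPM) and at 134, 126, 139, 98.1 and 117 CPM in WT A to E. All WT tumours but WT D were above the KO range, and the log2 fold change was -0.31 (SE 0.14, edgeR adjusted p = 0.189).

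Psmd8 (ENSMUSG00000030591, chr7:29174188-29180701, minus strand), which completes the lid, was at 159.8 to 225 CPM in KO tumours (median 187 CPM) and at 360.1, 405, 259, 146 and 171 CPM in WT A to E. WT D was below every KO tumour. The log2 fold change was -0.49 (SE 0.25, edgeR adjusted p = 0.246). Psmd3 (ENSMUSG00000017221, chr11:98682554-98695979, plus strand), another scaffold, was at 154 to 190.0 CPM in KO tumours (median 168 CPM) and at 217, 159, 174, 163 and 177 CPM in WT A to E. Only WT A left the KO range, and the log2 fold change was -0.07 (SE 0.13, edgeR adjusted p = 0.753) and turned above 0 under scaling by library totals. Psmd6, Psmd7, Psmd12 and Psmd13 had log2 fold changes from -0.16 to -0.33.

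Promoter windows of the 19S genes differed from those of the core in a motif that the choice of genes did not use. CCGGAAG, the core letters of sites for ETS factors, was present on either strand in 9 of 14 windows of the 19S particle (64.3%) and 0 of 11 of the core, against 9.12% of all windows. GGGCGG, the GC box bound by SP factors, was in 71.4% of the 19S windows, 45.5% of the core windows and 35.9% of all windows, and CCAAT, the letters bound by NF-Y, in 28.6%, 54.5% and 37.9%. The motifs overlapped each other only in Psmd9 (antioxidant response element with GC box) and Psme4 (GC box with ETS site). The stretches below come from a scaffold with even levels (Psmd2), the lid gene with the smallest p (Psmd11), a ubiquitin receptor (Psmd4) and a base ATPase (Psmc6), and show the ETS letters in capitals. They span chr16:20651572-20651651 (plus), chr11:80428535-80428614 (plus), chr3:95042697-95042776 (minus) and chr14:45329687-45329766 (plus).
Psmd2: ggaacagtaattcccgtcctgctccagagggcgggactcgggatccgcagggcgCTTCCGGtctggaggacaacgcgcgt
Psmd11: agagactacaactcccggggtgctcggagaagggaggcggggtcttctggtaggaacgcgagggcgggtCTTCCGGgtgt
Psmd4: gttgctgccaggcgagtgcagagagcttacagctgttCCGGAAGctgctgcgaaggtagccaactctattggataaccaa
Psmc6: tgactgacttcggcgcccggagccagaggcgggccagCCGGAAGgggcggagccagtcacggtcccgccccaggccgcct

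A match of letters is a description of the window and does not show that a factor binds there.

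The base is assembled with the help of Psmd9, Psmd5 and Psmd10 (gankyrin), which leave the finished particle. Psmd9 (ENSMUSG00000029440, chr5:123169413-123250131, plus strand) was at 31.3 to 42.2 CPM in KO tumours (median 38.3 CPM) and at 64.1, 61.9, 49.2, 32.1 and 31.3 CPM in WT A to E. WT A, B and C were above the KO range, and the log2 fold change was -0.35 (SE 0.21, edgeR adjusted p = 0.302). Psmd5 (ENSMUSG00000026869, chr2:34849734-34874968, minus strand) was at 53.7 to 66.5 CPM (median 64.9 CPM) in KO tumours and at 73.2, 87.6, 65.5, 73.4 and 55.0 CPM in WT A to E. WT A, B and D exceeded the KO range, for a difference of -0.18 on the log2 scale (SE 0.14, edgeR adjusted p = 0.442). Psmd10 (ENSMUSG00000031429, chrX:140948429-140956728, minus strand) was at 37.4 to 57.4 CPM in KO tumours (median 45.3 CPM) and at 79.9, 84.6, 53.1, 36.4 and 28.6 CPM in WT A to E. WT tumours lay on both sides of the KO range, and the log2 fold change was -0.27 (SE 0.27, edgeR adjusted p = 0.557).

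PA28 caps varied among tumours of both genotypes. Psme1 (ENSMUSG00000022216, chr14:55578123-55581529, plus strand), which encodes PA28 alpha, was at 154 to 380.1 CPM in KO tumours (median 279 CPM) and at 543, 417, 426, 287 and 157 CPM in WT A to E. WT A, B and C were above all KO tumours, and the lowest tumours of each genotype, KO D and WT E, were nearly equal. The log2 fold change was -0.43 (SE 0.30, edgeR adjusted p = 0.395). Psme2 (ENSMUSG00000079197, chr14:55587441-55591113, minus strand) encodes the beta partner. It was at 95.2 to 298 CPM in KO tumours (median 208 CPM) and at 505, 323, 307, 159 and 105 CPM in WT A to E. KO D and WT E were again the lowest, and the log2 fold change was -0.46 (SE 0.37, edgeR adjusted p = 0.459).

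Psme3 (ENSMUSG00000078652, chr11:101316213-101323537, plus strand) encodes PA28 gamma, a nuclear cap that is not a known interferon target. It was at 99.4 to 125 CPM in KO tumours (median 106 CPM) and at 114, 93.1, 81.4, 121 and 151 CPM in WT A to E. WT E was the highest of all tumours and WT B and C the lowest, an order that differed from that of Psme1 and Psme2. The log2 fold change was -0.05 (SE 0.16, edgeR adjusted p = 0.87) and changed sign under scaling by library totals. The left-out immunoproteasome subunits Psmb8, Psmb9 and Psmb10 had log2 fold changes of -0.22, -0.16 and -0.47 (edgeR adjusted p = 0.512 to 0.863), and KO D and WT E were also the lowest tumours of their genotype for each of them.

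The genes outside the particle's usual make-up were examined one by one. Psme4, which encodes PA200, was at 82.1 to 123 CPM in KO tumours (median 99.7 CPM) and at 57.0, 69.8, 69.5, 119 and 132 CPM in WT A to E. As for Psmd1, WT A, B and C were below every KO tumour, and the log2 fold change was 0.16 (SE 0.22, edgeR adjusted p = 0.674). Psme2b was at 39.8 to 124 CPM in KO tumours and 41.4 to 138 CPM in WT tumours (log2 fold change -0.12, edgeR adjusted p = 0.841). It was lowest in KO D and WT E like Psme2, whose similar sequence makes the assignment of reads between them uncertain. Psmc3ip was at 5.98 to 10.6 CPM in KO tumours and 7.17 to 24.4 CPM in WT tumours (log2 fold change -0.74, edgeR adjusted p = 0.17). Psma8 had only 10 to 34 counts in any tumour (log2 fold change -0.10, edgeR adjusted p = 0.877). Psmb11 was not tested, with 0 counts in 10 tumours and 6 counts in WT E.

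To compare genes with each other, CPM was divided by exon length in kilobases, giving a level per length. In KO tumours the core genes spanned 4.25-fold, from 35.4 for Psma3 to 150.5 CPM per kilobase for Psmb4, and in WT tumours from 58.4 to 209.6 for the same genes. The 19S genes ranged from 15.5 (Psmd11) to 93.6 (Psmc1) CPM per kilobase in KO tumours. Among PA28 genes, Psme1 was at 123 and Psme3 at 36.7 CPM per kilobase. The annotated exon length counts every isoform, so that genes with long minor isoforms have understated levels.

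**Figure D3:**
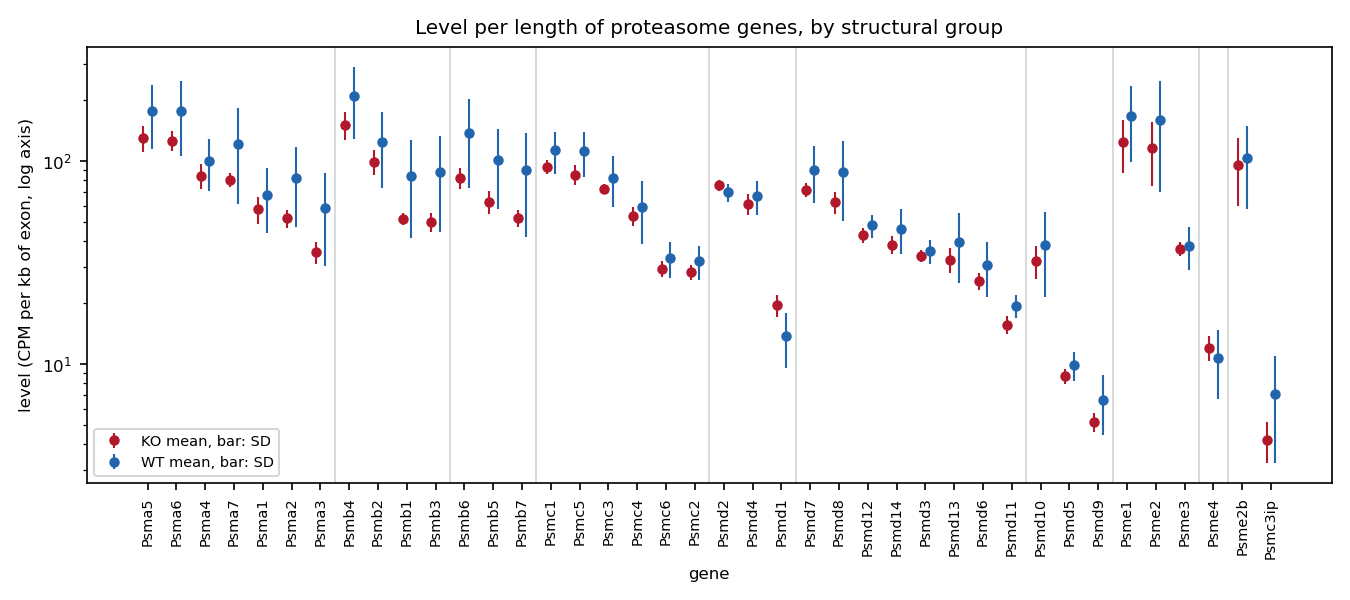
Level per exon length (CPM per kilobase, log axis) of 40 proteasome genes, ordered within structural groups by the KO mean; points are means and bars SD over 6 KO and 5 WT tumours, and the scarce Psma8 is left out. WT bars are longer than KO bars for most genes, and the core reaches from Psma3 to Psmb4.

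WT tumours varied more than KO tumours. The coefficient of variation over tumours was 6.38 to 16.3% for core genes in KO tumours (median 12.2%) and 29.0 to 53.0% in WT tumours (median 42.7%). For 19S genes the medians were 9.28% in KO and 25.2% in WT tumours. These shares describe the tumours at hand, and the difference in spread was not tested.

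Sums of level per length placed each tumour on one scale. The 14 core genes summed to 1168, 1080, 1206, 955, 1038 and 1232 CPM per kilobase in KO A to F and to 2140, 2391, 1634, 1029 and 893 in WT A to E. The 17 genes of the 19S particle summed to 793 to 899 in KO tumours and to 1227, 1145, 956, 782 and 784 in WT A to E. WT A, B and C exceeded all KO tumours in both of these TMM-scaled sums. The ratio of the core sum to the 19S sum was 1.32 ± 0.0667 in KO tumours (SD, n = 6, range 1.20 to 1.37) and 1.74, 2.09, 1.71, 1.32 and 1.14 in WT A to E. The ratio was thus above the KO range in the 3 libraries that stood apart and not in WT D or E. In those 3 libraries expression fell with exon length, and the median exon length was 2335 bases for core and 2820 for 19S genes. The part of gene length in the ratio was not tested.

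**Figure D4:**
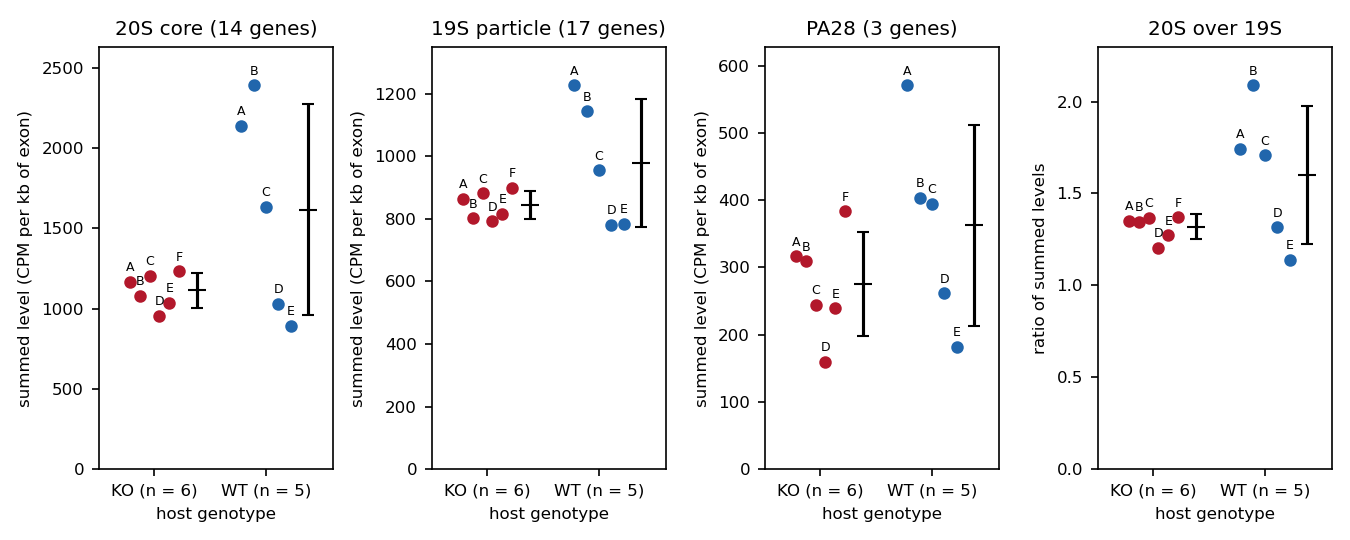
Summed level per exon length (CPM per kilobase) of the 20S core, the 19S particle and PA28, and the ratio of the first 2 sums, for each of 6 KO and 5 WT tumours; letters are replicates and bars the mean and SD. WT A, B and C lie above all KO tumours in each panel, whereas WT D and E lie within or below the KO range.

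The mean core sum in KO tumours was 0.688 of that in WT tumours, the 19S sum 0.861 and the PA28 sum 0.759. Expressed as TPM, which also rescales for the length of all other transcripts, the ratios were 0.954, 1.12 and 1.02. The mean 19S sum was then higher in KO tumours, with WT B, the library richest in ribosomal RNA, the lowest of all tumours. PA28 sums overlapped, at 509 to 1172 TPM in KO tumours and 531 to 1233 TPM in WT tumours. The core sums in TPM were 3046 to 3766 in KO tumours and 4624, 3147, 3737, 3324 and 3043 in WT A to E. For the 19S particle they were 2483 to 2749 in KO tumours and 2651, 1507, 2187, 2526 and 2673 in WT A to E. On this scale only WT A exceeded the KO range of the core, and WT B and C were below that of the 19S particle. Fold change and exon length were related across genes, with a Spearman coefficient of 0.383 over all tested genes and 0.292 over the 41 proteasome genes, whose median exon length was 2800 bases against 3909 bases for all genes. The 9 proteasome genes of at least 4000 exon bases had a median log2 fold change of -0.18, and the 32 shorter genes -0.33. With a gene length offset in the fit the core median was -0.29, and with the share of ribosomal RNA as covariate it was -0.07. With that covariate 0 proteasome genes had an unadjusted p under 0.05, against 4.52% and 4.37% of all genes lower and higher. The highest shares were those of WT A, B and C, so the covariate and host genotype cannot be fully told apart.

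Carcinoma epithelium markers also differed in level, with 8 of 8 log2 fold changes below 0 (median -0.62) and 3 of 8 at an unadjusted p under 0.05, against 15.5% of all genes lower at that threshold. Their sums in WT A to E were 9488, 3108, 7514, 6170 and 5817 CPM, the lowest of the WT group being that of WT B. Fibroblast (7 of 7, median 0.41), macrophage (6 of 6, median 0.33), endothelial (3 of 3, median 0.38), neutrophil (4 of 4, median 1.23) and B cell markers (4 of 4, median 2.44) lay above 0. Of these, 4 of 4 B cell, 2 of 4 neutrophil and 2 of 6 macrophage markers were higher at an unadjusted p under 0.05, against 8.57% of all genes. After adjustment edgeR called 0 of 43 markers. DESeq2 called 6 of 42 higher, which were markers of B cells, neutrophils (S100a9) and macrophages (Csf1r), and 1 lower, the acinar gene Cela1. Over all genes DESeq2 called 3.19% higher and 4.81% lower. The part of cell composition in the proteasome levels was not tested. Proliferation markers had a median of 0.07 and T cell markers of 0.12.

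Genes that work with the proteasome were taken from lists of known pathway members. After adjustment edgeR called 0 of the 53 tested, and DESeq2 called 4 lower, among them Psmg3, Cops9 and Rps27a, and 1 higher (Uba1), against 4.81% and 3.19% of all genes. Of the particle subunits without the prefix, the lid component Sem1 was at 123 to 169 CPM in KO tumours and at 402, 659, 256, 138 and 121 CPM in WT A to E (log2 fold change -1.11, SE 0.37, edgeR adjusted p = 0.115). The ubiquitin receptor Adrm1 had a log2 fold change of -0.04, which was above 0 under scaling by library totals. The factors that assemble or regulate the core lay below 0 in 7 of 7 genes (median -0.42, and 6 under scaling by library totals), with 2 of 7 lower at an unadjusted p under 0.05, against 15.5% of all genes. The smallest p belonged to the assembly chaperone Psmg3, at 5.16 to 7.46 CPM in KO tumours and 17.4, 21.4, 21.6, 5.84 and 6.65 CPM in WT A to E (log2 fold change -1.22, SE 0.34, edgeR adjusted p = 0.0942). As for the core, WT A, B and C were above all KO tumours for both genes, and WT D and E were not.

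NFE2L1, which drives proteasome gene transcription, was listed with its activating enzymes Ddi2 and Ngly1 and with Nfe2l2 (NRF2), a related factor, and its inhibitor Keap1. All 5 genes had log2 fold changes above 0 (median 0.28), and 0 of 5 had an unadjusted p under 0.05, against 8.57% of all genes higher. Nfe2l1 itself was at 201 to 300.5 CPM in KO tumours and at 129.6, 84.4, 186, 195 and 252 CPM in WT A to E (log2 fold change 0.51, SE 0.24, edgeR adjusted p = 0.218). It was lowest in WT B, and 4 of 5 WT tumours were below every KO tumour. The part of Nfe2l1 in the proteasome levels was not tested.

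Upstream of the proteasome, 3 of 6 ubiquitin and E1 genes lay below 0 (median 0.02, and 2 of 6 under scaling by library totals), with 2 of 6 lower and 1 of 6 higher at an unadjusted p under 0.05, against 15.5% and 8.57% of all genes. The ubiquitin fusion gene Rps27a had the smallest p, with a difference of -1.23 on the log2 scale (SE 0.38, edgeR adjusted p = 0.106). Uba1, the main ubiquitin-activating enzyme, was at 341 to 425 CPM in KO tumours and at 187, 142, 279.7, 291 and 291 CPM in WT A to E (log2 fold change 0.63, SE 0.20, edgeR adjusted p = 0.107). Its groups did not overlap, beside 1.59% of all tested genes that were higher in KO tumours without overlap, and it was chosen for that after its values were seen. Shuttles and p97 cofactors were below 0 in 7 of 11 genes (median -0.02, and 3 of 11 under that scaling), and the deubiquitinases and ligases on the particle in 3 of 4 (median -0.04, and 1 of 4), led by Uchl5 at -0.41 (SE 0.18, edgeR adjusted p = 0.192).

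Other multi-subunit complexes gave a scale for these values. The COP9 signalosome, which resembles the lid in architecture, was below 0 in 10 of 10 genes (median -0.38, and 9 under scaling by library totals), with 5 of 10 lower at an unadjusted p under 0.05, against 15.5% of all genes. Its smallest p was that of Cops9, at -1.47 (SE 0.42, edgeR adjusted p = 0.0956). The CCT chaperonin, which folds actin and tubulin, was below 0 in 8 of 8 genes (median -0.19, and 5 under that scaling), with 2 of 8 lower at an unadjusted p under 0.05, against the same 15.5%, and Cct4 at -0.43 (SE 0.16, edgeR adjusted p = 0.137). No test compared these complexes with the proteasome.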

How the data were processed

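Per the labels and the study's methods, tumour RNA was made into strand-specific paired-end libraries, and Trimmomatic, HISAT2 (version 2.1.0, GRCm38) and HTSeq (version 0.11.2) gave exon counts from unique alignments. The strand setting of the counting is not given in the sources used here. The authors deposited raw counts per gene, used for all tests. They also deposited normalised values, a signal equal to the counts divided by 1 factor per tumour. These factors, 0.514 to 1.42, matched DESeq2 size factors in 11 of 11 tumours (tolerance 1e-06).

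Groups and replicate letters came from the sample titles. The fit used edgeR (version 4.0.16, R 4.3.3) with TMM, filterByExpr and no covariates. Standard errors were the absolute log2 fold change over the square root of F. DESeq2 (version 1.42.0), other scalings and filters, a replicate block, a gene length offset (lowess span 0.3), the ribosomal RNA share (Gm42418, mt-Rnr1 and mt-Rnr2) as covariate, leaving out each tumour, and leaving out WT A, B and C were alternatives. Scripts were tested on simulated counts. Chi-square per degree of freedom was at least 35.6 between any 2 libraries, so none was a duplicate. Each tumour came from its own host, but no batch was labelled.

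Coordinates and exon lengths are from GENCODE M21 (GRCm38, 1-based), and promoter windows from RefSeq. Of the 42 genes, 41 were tested. Named genes were the catalytic and PA28 genes, and in every other structural group the 2 with the smallest and the 1 with the largest p. Members and lists were chosen with earlier results of these data known. Some genes of the pathway and marker lists are not reported here by name.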

Additional observations from a re-analysis of the deposited data

Results flagged for a closer look

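Among the proteasome genes, 1 value stood far from its group. Psme3 was at 124.9 CPM in KO F, whereas the other 5 KO tumours lay between 99.4 and 108.9 CPM (gap over range 0.627, against a critical value of 0.625). Among the library measures, the ribosomal RNA share of WT B, 6.39%, was far above the 0.241 to 1.40% of the other 4 WT tumours (0.811 against 0.710). In all 58 groups were examined, of which chance would single out about 2.9, and the cause of either value was not tested.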

How the results depend on the processing

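No proteasome gene passed the adjusted threshold with DESeq2 or under any other filter, scaling or covariate. Leaving out single tumours gave 0 to 7 such genes, the upper value without WT E. The count over all genes, 3, was 1489 with DESeq2, 0 with at least 10 counts in every tumour, 45 without a filter, 14 with total count scaling, 97 with the length offset, 0 with the ribosomal RNA covariate, 7 without WT A, B and C, and 0 to 1856 without single tumours. The 10 proteasome genes lower at an unadjusted p under 0.05 became 6 with total count scaling (9.68% of all genes), 0 with the covariate and 1 without WT A, B and C. Without single tumours they were 1 (WT B, against 9.59% of all genes) to 19 (WT E, 19.1%), with 6 without KO B or KO D (12.9% and 12.7%), 3 without WT A (12.8%) and 17 without WT D (18.1%). The 1 higher gene became 0 with the covariate and 4 without WT A, B and C. Without these libraries, which had the highest core levels of the WT tumours, the medians reversed, to 0.23 (core), 0.12 (19S) and 0.30 (PA28). The covariate moved the core median to -0.072. The 19S sum ratio was 1.12 on the TPM scale, an alternative chosen after seeing the data. Of the 24 named genes, 16 changed sign without WT A, B and C, 8 with the covariate, 5 with the length offset, 4 with total count scaling and 2 or fewer elsewhere. The cause of these changes was not tested.

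Same-letter tumours did not deviate together (correlations -0.135 to 0.118), so letters do not pair them. With a replicate block over letters A to E, which drops KO F, 8 genes were called over all genes, 0 of them proteasome genes, and 6 proteasome genes were lower at an unadjusted p under 0.05 (7.96% of all genes). Only 1 of 5 KO tumours, KO A, correlated best with its own letter.

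Depth was not limiting for proteasome genes other than Psma8 and Psmb11, and intervals over tumours cover the spread between animals only.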
